A study of Mus musculus with 24 samples.

Results

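The genes described here are 9 genes of homologous recombination, the Fanconi anemia pathway and the DNA damage checkpoint, chosen by name as the rows of Brca2, Fanca, Fancd2, Fanci, Exo1, Blm, Chek1, Atr and Rad54l among the 21833 protein-coding genes of an RNA-seq table of mouse adrenal glands and neuroblastoma. All 9 were found once. AG (n = 3) are adrenal glands from mice without Cre. AGM (n = 5) are adrenal glands free of tumor from mice of genotype MYCN +/-, CRE +, taken at a fixed age. TI are tumors of IGF2BP1, CRE + mice (n = 8), of which 1 was +/- and 7 were +/+ for the transgene. TIM are tumors of IMP1/MYCN, CRE + mice (n = 8), which carry both transgenes. The paper reports that the wildtype allele of the insertion locus is absent in these mice. With a different transgene on each allele, TIM mice carry fewer IGF2BP1 copies than +/+ TI mice. TIM vs TI therefore differs in IGF2BP1 dose as well as in MYCN, and these cannot be told apart here. The transgenes sit at the Rosa26 locus behind a stop cassette and are switched on by iCre driven from the Dbh promoter, so only cells of the sympatho-adrenal lineage are modified, while every library was made from whole tissue. Tumors were taken when the animals reached the termination criteria. Fewer cells of a type and less RNA per cell cannot be told apart in such samples.

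Homologous recombination repairs broken DNA by copying the intact sister chromatid, and therefore works in cells that are replicating or have replicated their genome. Exo1 resects the broken end, Brca2 is a mediator that prepares the resected strand for invasion, Rad54l is a motor protein that assists strand invasion, and Blm is a helicase that takes joint molecules apart. The Fanconi anemia pathway opens crosslinks between DNA strands, with Fanca in the core complex that directs ubiquitin onto the pair of Fancd2 and Fanci. Atr is the kinase that senses stalled replication, and Chek1 is the kinase it activates to hold the cell cycle.

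The 24 libraries held 12334076 to 23683176 recovered reads outside the 126 genes above 1000 FPKM (fragments per kilobase of gene, scaled to library size). Of all recovered reads, those of the extreme genes made up 86.1% to 98.6% in AGM libraries and 64.5% to 97.3% in TIM libraries, against 0.702% to 0.792% in AG libraries and 0.217% to 2.21% in TI libraries. At 1 FPKM a gene had 74.7 to 134 reads per kilobase, and single values of the 9 genes rest on 1 to 3913 reads. Libraries are named by group and a letter in column order, which is not a sample number. All 3 AG samples were sequenced in run 1 and all 5 AGM samples in run 2, TI came from runs 1 (6 samples), 2 (1 sample) and 3 (1 sample), and TIM from runs 2 (3 samples) and 3 (5 samples). For AGM vs AG and TIM vs AG, run and group cannot be told apart. TIM vs TI is also largely mixed with run, as run 1 held 6 TI samples and no TIM sample. TIM and AGM shared only run 2, with 3 TIM samples. The labelled tissues were checked by markers. The summed level of 7 adrenal cortex genes was 645 to 667 FPKM in AG and 3628 to 4846 FPKM in AGM. The tumors lay far lower, at 0.0173 to 10.1 FPKM (TI) and 0.281 to 9.28 FPKM (TIM). The 8 sympatho-adrenal genes summed to 139 to 200 FPKM (AG), 1279 to 2152 FPKM (AGM), 193 to 1761 FPKM (TI) and 215 to 4650 FPKM (TIM).

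On GRCm39, with the annotation of GENCODE M39, the 9 genes lie on 7 chromosomes. Fanca spans chromosome 8 from 123993038 to 124045331 (minus strand), Fancd2 chromosome 6 from 113508412 to 113573982 (plus strand) and Fanci chromosome 7 from 79041677 to 79100027 (plus strand). Brca2 spans chromosome 5 from 150446057 to 150496080 (plus strand), Rad54l chromosome 4 from 115948561 to 115980894 (minus strand), Exo1 chromosome 1 from 175708143 to 175741055 (plus strand) and Blm chromosome 7 from 80104481 to 80184899 (minus strand). Atr spans chromosome 9 from 95739650 to 95835263 (plus strand) and Chek1 chromosome 9 from 36614487 to 36638361 (minus strand). Coding genes on the opposite strand overlap the ends of Fanca (Zfp276), Fancd2 (Emc3 and Fancd2os), Fanci (Polg), Brca2 (N4bp2l1) and Rad54l (Lrrc41), and whether reads were counted by strand is not given in the sources used here.

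Promoter sequences from RefSeq (build GRCm38.p6, 250 bases before to 50 bases after the start) were at hand for 7 of the 9 genes, all but Exo1 and Fancd2. They were searched on both strands for TTTCCCGC, TTTCGCGC, TTTGCCGC and TTTGGCGC, which are forms of the site bound by E2F, the factor family that switches on replication genes, and for CCAAT, the box bound by NF-Y. Brca2 alone among the 7 held an E2F form, at position -168 from the start, and 2.32% of 27025 gene promoters held one. CCAAT occurred in Fanca, Rad54l and Blm, and in 37.9% of all promoters. TTTGAA, the core of the CHR element of late cell cycle genes (18.1% of all promoters), and CACGTG, the E-box bound by MYC proteins (7.24%), occurred in none of the 7. Shown are the window of Brca2 with its E2F form, the windows of Fanca and Rad54l with CCAAT close to the start, and, for contrast, those of the checkpoint pair Atr and Chek1, which moved in opposite directions in TI and hold neither. Capitals mark the E2F form or CCAAT.
Brca2, chr5:150522407-150522506, plus strand: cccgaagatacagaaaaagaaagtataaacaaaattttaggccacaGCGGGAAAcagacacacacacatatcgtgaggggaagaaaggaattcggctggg
Fanca, chr8:123318577-123318676, minus strand: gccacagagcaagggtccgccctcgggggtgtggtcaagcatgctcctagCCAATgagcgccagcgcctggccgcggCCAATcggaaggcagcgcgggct
Rad54l, chr4:116123691-116123790, minus strand: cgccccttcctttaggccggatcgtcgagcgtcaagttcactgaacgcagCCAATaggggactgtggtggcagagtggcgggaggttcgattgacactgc
Atr, chr9:95857497-95857596, plus strand: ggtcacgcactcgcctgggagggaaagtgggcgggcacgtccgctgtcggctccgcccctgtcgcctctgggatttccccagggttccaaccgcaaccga
Chek1, chr9:36726659-36726758, minus strand: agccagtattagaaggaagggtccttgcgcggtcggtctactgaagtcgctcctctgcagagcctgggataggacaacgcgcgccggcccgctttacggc

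Fanca, Fancd2 and Rad54l reached 1 FPKM in at least 3 libraries and entered a limma fit of log2(FPKM + 1) over 10171 genes, in which fold changes of low genes are understated. For the 6 genes below that filter, mean RPM (recovered reads scaled to 1000000 reads outside the 126 extreme genes) were compared by an exact two-sided permutation test, adjusted over the 5 contrasts of a gene. A read-based limma-voom fit over 16221 genes with at least 10 reads in 3 libraries, added after the data were seen, held all 9. An FDR or adjusted p below 0.05 was the threshold. The smallest p the exact test can give is 0.00606 for TI vs AG and TIM vs AG and 0.0179 for AGM vs AG. With 1 AG library left out these limits rise to 0.0222 and 0.0476, so that calls missing the threshold then say little about stability, and the range of the ratio is given instead.

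**Figure D1:**
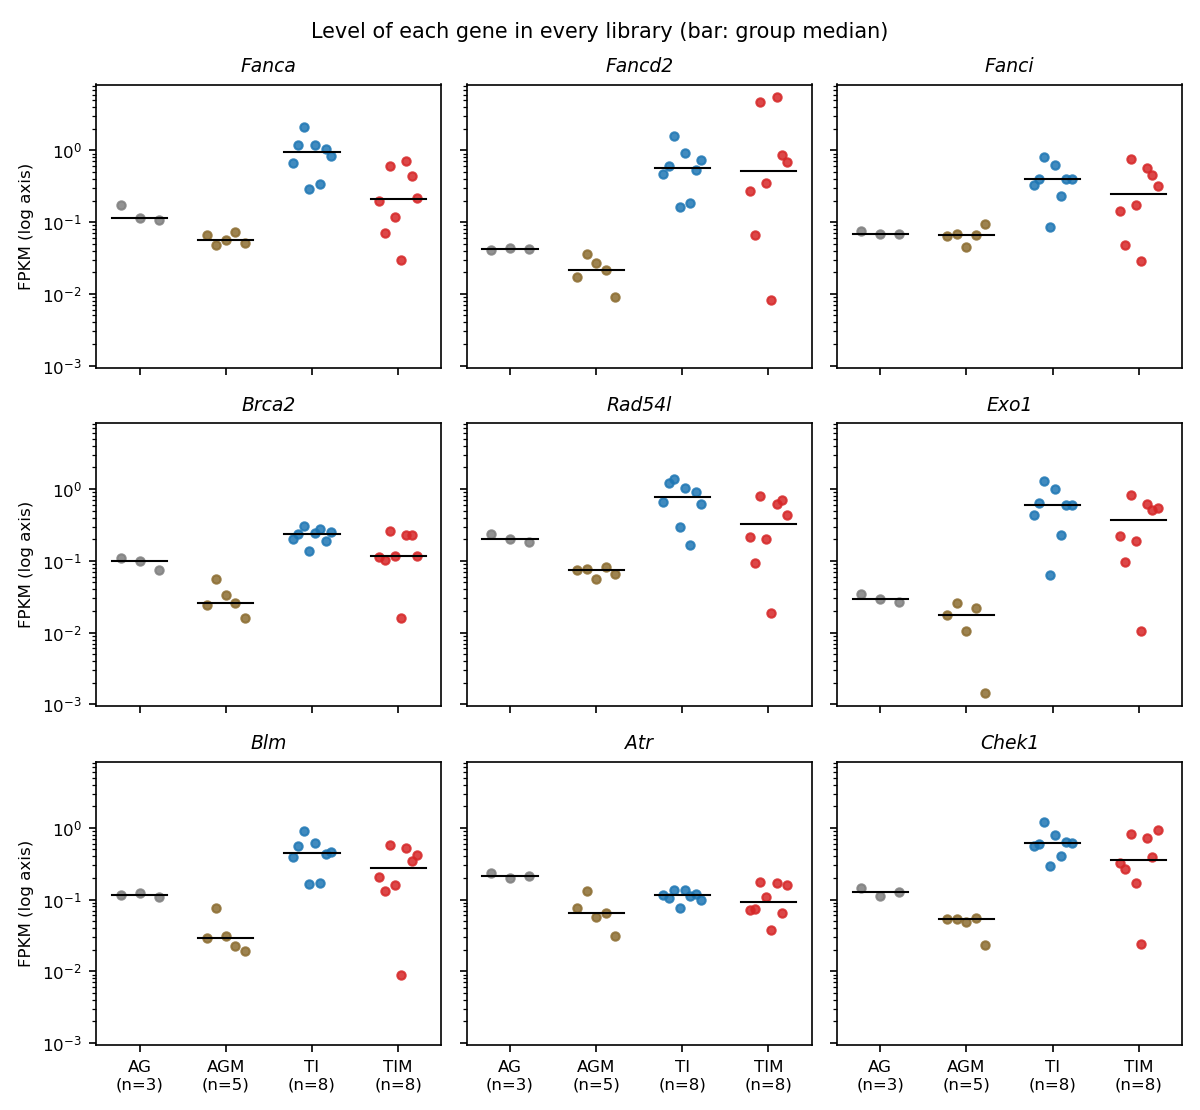
FPKM of each gene (log axis) in AG, AGM, TI and TIM, one point per library, with a bar at the group median. In 7 of 9 genes every TI library lies above every AG library, Atr lies lower in all TI and TIM libraries than in AG, and the lowest TIM point is the same library, TIM-E, in all 9 panels.

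The general pattern was low expression in glands, lowest in AGM, and higher expression in tumors with a wide spread between tumors. Every TI library lay above every AG library for 7 of the 9 genes (all but Rad54l and Atr), where 20.4% of 16221 genes did so. For Atr every TI library lay below every AG library, as for 25.9% of all genes, and every TIM library did too, as for 24.3%. Every AGM library lay below every AG library for 8 of 9 genes on the FPKM scale, against 28.4% of all genes. Fanci was the exception in AGM.

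Fanca, a subunit of the core complex, was measured at 0.176, 0.115 and 0.105 FPKM in the AG libraries and at 0.0661, 0.0485, 0.0554, 0.0738 and 0.0504 FPKM in AGM. In TI it ranged from 0.291 (TI-D) over a median of 0.944 to 2.1 FPKM (TI-C), and in TIM from 0.0301 (TIM-E) over a median of 0.209 to 0.704 FPKM (TIM-F). TI did not overlap with AG, whereas TIM spanned both glands and TI. Fanca was higher in TI than in AG by 2.63 ± 0.84 (SE) on the log2 scale of the read-based fit (FDR = 0.0133, limma), a call that was lost without AG-B or AG-C (highest FDR = 0.0554). Its log2 fold change in TIM vs TI was -2.03 ± 0.51 in that fit (FDR = 0.0091), and this held without any single library. On the log2(FPKM + 1) scale the differences were 0.74 ± 0.19 in TI vs AG (FDR = 0.00266) and -0.56 ± 0.14 in TIM vs TI (FDR = 0.00757), but Fanca reached 1 FPKM only in TI-B, TI-C, TI-E and TI-G and so entered that fit through TI alone, which makes these calls no support for a higher level in TI. No other gene of the 9 was past the threshold in TIM vs TI in either fit, and Brca2 was so in the exact test. Zfp276, the gene overlapping its end, averaged 1.30 ± 0.179 (SD) FPKM in AG, 1.12 ± 0.141 in TI and 0.710 ± 0.202 in TIM.

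Fancd2, which is monoubiquitinated by the core complex, was nearly constant in AG at 0.0411, 0.0431 and 0.0427 FPKM, and was 0.0171, 0.0357, 0.0267, 0.0218 and 0.00903 FPKM in AGM. TI ranged from 0.163 (TI-D) over a median of 0.568 to 1.59 FPKM (TI-C). In TIM the values were 0.273, 0.0661, 4.66, 0.345, 0.00831, 5.48, 0.874 and 0.689 FPKM from TIM-A to TIM-H. TIM-C (3506 reads) and TIM-F (3913 reads) thus stood far above the other 6 TIM libraries, which averaged 0.376 ± 0.343 FPKM (SD). Calls for Fancd2 depended on the setting. TIM vs AGM was past the threshold in the FPKM fit (log2 fold change 0.94 ± 0.36 on the log2(FPKM + 1) scale, FDR = 0.0255, limma), but not when only the libraries of that contrast set the spread (FDR = 0.0762) or in the read-based fit (4.31 ± 2.18, FDR = 0.0953). TIM vs AG gave 0.91 ± 0.42 in the FPKM fit (FDR = 0.0781) and passed without TIM-B (FDR = 0.0446), without TIM-E (FDR = 0.0377) and with a pseudocount of 0.1 (FDR = 0.0265). TI vs AG, at 0.62 (FDR = 0.231), passed with a pseudocount of 0.1 (FDR = 0.0359) and when only the libraries of the contrast set the spread (FDR = 0.0237), and AGM vs AG passed under the latter (FDR = 0.0478). Fancd2 reached 1 FPKM only in TI-C, TIM-C and TIM-F, so it entered the FPKM fit only through these libraries and has no value there once any of them is left out. Its calls in that fit are therefore no support for a higher level in tumors. Without TIM-C and TIM-F the read-based fit gave 3.59 ± 1.45 for TI vs AG (FDR = 0.0473), 2.18 ± 1.53 for TIM vs AG (FDR = 0.26) and -1.41 ± 0.72 for TIM vs TI (FDR = 0.158). With them, TI vs AG was at FDR = 0.2 in that fit and TIM vs TI at -0.31 ± 0.86.

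The high Fancd2 libraries were followed along the chromosome, a comparison chosen after the values were seen. For genes above 0.3 FPKM in at least 8 libraries, the mean of TIM-C and TIM-F was divided by the median of the other 6 TIM libraries. This ratio was 16.4 for Fancd2 itself. Among the 22 such genes within 500 kb of Fancd2, the median ratio was 4.17 and 18 exceeded 2, whereas the median was 0.983 over 11749 genes and 0.813 over the 567 genes of chromosome 6. Among them, picked after their values were seen, were the chromatin reader Brpf1 (9.91 against 1.70 FPKM), the DNA glycosylase Ogg1 (7.4 against 1.13 FPKM), the tumor suppressor Vhl (17.4 against 4.07 FPKM) and, farther out, the ubiquitin ligase Rad18 (2.54 against 0.599 FPKM), here given as the mean of both libraries against the median of the other 6. From 1 to 0.5 Mb upstream the median ratio was 3.14 (2 genes), from 0.5 to 1.5 Mb downstream it was 2.50 (4 genes) and from 1.5 to 2.7 Mb it was 2.01 (12 genes). Beyond, from 2.7 to 5 Mb, it was 0.676 (13 genes), and from 5 to 1 Mb upstream it was 0.704 (5 genes). Ratios above 2 were found for 4 of 90 genes from 5 to 20 Mb downstream and for 2 of 22 genes from 20 to 5 Mb upstream. Most of these bins hold few genes, and they differ in width. The edge at 2.7 Mb falls between Washc2 (ratio 2.17) and Zfand4 (ratio 1.48), so the extent of the stretch is a description only. The stretch contains the Rosa26 locus (Gt(ROSA)26Sor, chromosome 6 from 113043843 to 113055336 on GRCm39), the insertion site of the transgenes, which lies 453 kb from the start of Fancd2.

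**Figure D2:**
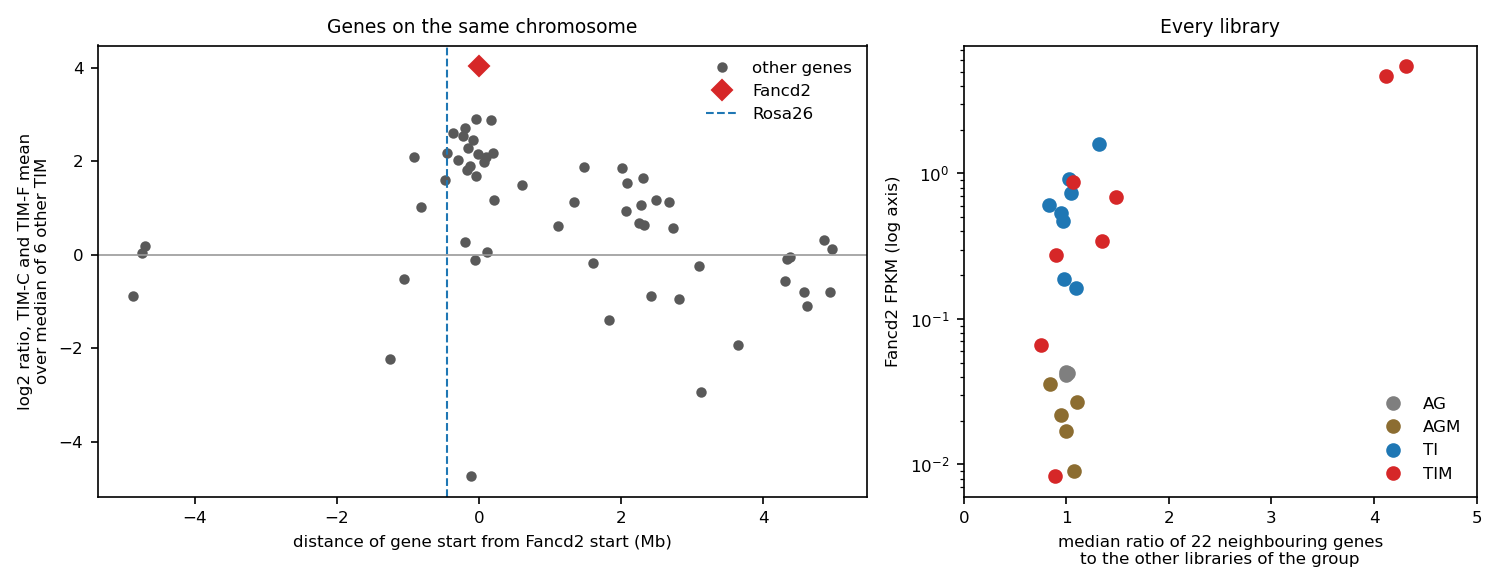
Left, log2 of the mean of TIM-C and TIM-F over the median of the 6 other TIM libraries for genes within 5 Mb of Fancd2, by the distance of their starts in Mb, with the Rosa26 locus as a dashed line. Right, Fancd2 FPKM (log axis) in all 24 libraries against the median ratio of the 22 neighbouring genes to the other libraries of the same group (for TIM, leaving out TIM-C and TIM-F), where TIM-C (4.11) and TIM-F (4.31) stand apart and all others lie between 0.753 and 1.49.

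Library by library, the median ratio of the 22 neighbours to the rest of the group was 4.11 in TIM-C and 4.31 in TIM-F, 1.49 in TIM-H and 1.34 in TIM-D. In TI it was between 0.833 and 1.32. The neighbours of the other 8 genes did not share this, with median ratios between 0.802 (Blm) and 1.60 (Exo1, 4 genes), although these genes themselves were 2.1 (Brca2) to 4.21 (Fanci) times as high in TIM-C and TIM-F as in the median of the other TIM. Over 11749 genes, the deviations of TIM-C and TIM-F from the TIM mean correlated at 0.675, the highest of 28 pairs of TIM libraries (next highest 0.423). This is a description across genes, which are not independent, and the labels give no animal that the columns could be tied to. Emc3, which overlaps the start of Fancd2, averaged 9.76 ± 7.72 FPKM (SD) in TIM and 3.72 ± 0.596 FPKM in TI. By shallow whole genome sequencing, the paper reports pronounced gains in TIM samples on the chromosome that holds Fancd2. Those samples cannot be tied to the libraries here. DNA copy number was not analysed here, and no cause was tested.

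Fanci, the partner of Fancd2, was measured at 0.0759, 0.0675 and 0.0685 FPKM in AG and at 0.0641, 0.0679, 0.0453, 0.066 and 0.0931 FPKM in AGM, so the glands overlapped. TI ranged from 0.0859 (TI-D) over a median of 0.401 to 0.816 FPKM (TI-C), and TIM from 0.0285 (TIM-E) over 0.247 to 0.757 FPKM (TIM-C). Mean RPM was 5.74 times as high in TI as in AG, with an exact permutation p of 0.0303 (adjusted p = 0.0758), and without TI-D the adjusted p was 0.0446. The read-based fit gave 2.28 ± 0.98 (FDR = 0.061). The ratio of AGM to AG was 0.953 on the FPKM scale and 0.677 on the RPM scale, on which all 5 AGM libraries lay below AG (adjusted p = 0.0758, exact permutation).

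Brca2, the mediator, had the smallest coefficient of variation in TI after Atr. It was measured at 0.108, 0.0996 and 0.0739 FPKM in AG and at 0.0244, 0.0567, 0.0329, 0.0262 and 0.0158 FPKM in AGM. TI ranged from 0.136 (TI-D) over a median of 0.239 to 0.308 FPKM (TI-C), a coefficient of variation of 23.7%, and TIM from 0.0161 (TIM-E) over 0.118 to 0.257 FPKM (TIM-C). TI and AG did not overlap, and TI and AGM did not either. Mean RPM was 19.0 ± 4.83 in TI and 7.80 ± 1.60 in AG (SD), a ratio of 2.44 that had the smallest possible p of the exact permutation test (p = 0.00606, adjusted p = 0.0223). The ratio was 0.249 in AGM vs AG (adjusted p = 0.0223, exact permutation), 0.594 in TIM vs TI (adjusted p = 0.0223) and 5.82 in TIM vs AGM (adjusted p = 0.0223). Leaving out each library in turn kept the ratio in AGM vs AG between 0.193 and 0.287, with an adjusted p of 0.0595 once an AG library was missing, and the other 3 calls held without each of the 24 libraries. In the read-based fit TIM vs AGM was past the threshold (2.03 ± 0.64, FDR = 0.0103), while TI vs AG (1.27 ± 0.53, FDR = 0.0522) and TIM vs TI (-0.91 ± 0.35, FDR = 0.0724) were not. AGM vs AG was not past it in that fit either (-1.67 ± 0.76, FDR = 0.124). Without TIM-E, which is in neither group, TI vs AG was at FDR = 0.00434 with the log2 fold change still at 1.27.

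Rad54l, the strand invasion motor, was measured at 0.238, 0.202 and 0.181 FPKM in AG and at 0.0752, 0.0763, 0.0566, 0.0809 and 0.0651 FPKM in AGM. TI ranged from 0.165 (TI-F) over a median of 0.784 to 1.37 FPKM (TI-C), and TIM from 0.0185 (TIM-E) over 0.327 to 0.797 FPKM (TIM-C). TI-F lay below all AG libraries and the other 7 TI above them. The read-based fit did not call TI vs AG (1.64 ± 0.84, FDR = 0.118). On the log2(FPKM + 1) scale the difference was 0.52 ± 0.19 (FDR = 0.0214, limma), and was not past the threshold without any one of AG-A, AG-B or AG-C (FDR = 0.0528 to 0.0708). Rad54l reached 1 FPKM only in TI-B, TI-C and TI-E, so it entered the FPKM fit through TI alone, has no value there once any of these is left out, and its call there is no support for a higher level in TI. In the FPKM fit TIM vs TI gave -0.35 ± 0.14 (FDR = 0.066), which passed without TI-D, TI-F, TIM-C, TIM-F or TIM-G (FDR = 0.0158 to 0.0453). TIM vs AGM gave 0.34 ± 0.16 (FDR = 0.0583), which passed without TI-D, TI-F, TIM-B or TIM-E (FDR = 0.0248 to 0.0489). Because of the entry through TI, the TIM vs TI value in the FPKM fit is no support for a lower level in TIM. The read-based fit called neither TIM vs TI (-1.38 ± 0.56, FDR = 0.0887) nor TIM vs AGM (1.79 ± 1.04, FDR = 0.145).

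Exo1, the end resection nuclease, had the lowest gland level of the 9, with 0.0343, 0.0293 and 0.0268 FPKM in AG (24 to 31 reads) and 0.0176, 0.0259, 0.0104, 0.0219 and 0.00142 FPKM in AGM, the last of which was 1 read. TI ranged from 0.0644 (TI-D) over a median of 0.595 to 1.29 FPKM (TI-C), and TIM from 0.0104 (TIM-E) over 0.367 to 0.830 FPKM (TIM-C). The tumors thus exceeded the glands except for TIM-E. Mean RPM was 19.8 times as high in TI as in AG (exact permutation p = 0.0303, adjusted p = 0.0505) and 30.3 times as high in TIM as in AGM (adjusted p = 0.0446). It was 0.385 times as high in AGM as in AG (adjusted p = 0.0446). On the FPKM scale the ratio in TIM vs AGM was 24.4 (exact permutation, adjusted p = 0.0622). In AGM vs AG it was 0.512 on that scale (adjusted p = 0.0758), so neither call held there. The read-based fit called TIM vs AGM (4.22 ± 1.68, FDR = 0.0365), and lost it without any one AGM library (FDR up to 0.0872). That fit did not call AGM vs AG (-1.33 ± 2.27, FDR = 0.727). Leaving out each library in turn kept the ratio between 0.313 and 0.474 in AGM vs AG and between 24.6 and 37.2 in TIM vs AGM, while both exact calls missed the threshold without any one AG or AGM library or without TIM-C, TIM-F, TIM-G or TIM-H, with adjusted p up to 0.159 and 0.0833. Without TIM-E, the library lowest in all 9 genes, TIM vs AG passed (13.3 times, adjusted p = 0.0417). TI vs AG then had an adjusted p of 0.0417 through the other contrasts alone, as its exact permutation p stayed at 0.0303.

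Blm, the helicase, was measured at 0.116, 0.122 and 0.108 FPKM in AG and at 0.0295, 0.0769, 0.0312, 0.0224 and 0.0191 FPKM in AGM. TI ranged from 0.162 (TI-D) over a median of 0.448 to 0.888 FPKM (TI-C), and TIM from 0.00876 (TIM-E) over 0.276 to 0.582 FPKM (TIM-C). Mean RPM was 3.92 times as high in TI as in AG (exact permutation p = 0.0364, adjusted p = 0.0606), 0.234 times as high in AGM as in AG (adjusted p = 0.0446) and 10.3 times as high in TIM as in AGM (adjusted p = 0.0446). Leaving out each library in turn kept the last 2 ratios between 0.162 and 0.268 and between 8.90 and 14.8, while the calls missed the threshold without any one AG or AGM library or without TIM-C, TIM-F, TIM-G or TIM-H (adjusted p up to 0.119 in AGM vs AG and up to 0.0738 in TIM vs AGM). TI vs AG passed without TI-D or TI-F (adjusted p = 0.0417). The read-based fit gave 1.78 ± 0.90 for TI vs AG (FDR = 0.11) and 2.58 ± 1.11 for TIM vs AGM (FDR = 0.0516), and 3.15 for the latter without TIM-E (FDR = 0.00156). That fit did not call AGM vs AG (-1.84 ± 1.32, FDR = 0.347).

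Atr, the sensor kinase, was the only one of the 9 with lower means in both tumor groups than in AG. It was measured at 0.233, 0.199 and 0.214 FPKM in AG (495 to 592 reads) and at 0.0772, 0.132, 0.058, 0.0645 and 0.0308 FPKM in AGM. TI ranged from 0.077 (TI-D) over a median of 0.114 to 0.138 FPKM (TI-E), and TIM from 0.0372 (TIM-E) over 0.0913 to 0.174 FPKM (TIM-C). No tumor and no AGM library reached the AG values. Mean RPM in TI was 0.519 times that in AG (exact permutation p = 0.00606, adjusted p = 0.0152), in TIM 0.463 times (adjusted p = 0.0152) and in AGM 0.254 times (adjusted p = 0.0298). Leaving out each library in turn kept these ratios between 0.500 and 0.547, between 0.421 and 0.510 and between 0.197 and 0.296. The adjusted p without an AG library was 0.0556 for both tumor contrasts and 0.0794 for AGM vs AG, and TIM vs AG was also at 0.0556 without TIM-D. In the read-based fit Atr had log2 fold changes to AG of -0.95 ± 0.31 in TI (FDR = 0.0156, and 0.0637 without AG-A), -1.19 ± 0.32 in TIM (FDR = 0.00384) and -1.70 ± 0.39 in AGM (FDR = 0.00524). TIM and TI did not differ past the threshold (ratio 0.891, adjusted p = 0.552). AGM shared no sequencing run with AG, nor did TIM.

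Chek1, the kinase downstream of Atr, was measured at 0.147, 0.111 and 0.126 FPKM in AG and at 0.0532, 0.054, 0.0484, 0.0548 and 0.0232 FPKM in AGM. TI ranged from 0.289 (TI-D) over a median of 0.609 to 1.22 FPKM (TI-C), and TIM from 0.0237 (TIM-E) over 0.357 to 0.927 FPKM (TIM-H). All TI libraries lay above the glands, as did all TIM libraries but TIM-E. Mean RPM was 4.93 times as high in TI as in AG, 0.272 times as high in AGM as in AG and 12.2 times as high in TIM as in AGM (exact permutation, adjusted p = 0.0376 each). Leaving out each library in turn kept these ratios between 4.32 and 5.38, between 0.254 and 0.313 and between 10.1 and 13.9, while the 3 calls missed the threshold without any one AG or AGM library or without TI-G or TI-H, and TIM vs AGM also without TIM-G (adjusted p up to 0.0794 in each). The read-based fit gave 2.20 ± 0.84 for TI vs AG (FDR = 0.0364), which was lost without any one AG library or TI-E (FDR up to 0.111), and 2.71 ± 0.93 for TIM vs AGM (FDR = 0.0167). That fit did not call AGM vs AG (-1.48 ± 1.17, FDR = 0.401).

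Counted by contrast, the FPKM fit called 2 of 3 tested genes in TI vs AG (Fanca and Rad54l), both of which entered it through TI libraries alone, so the count is no support, and 52.4% of all tested genes were called in either direction. It called none in TIM vs AG, where 51% of all genes were called, and none in AGM vs AG (28.6%), and at an unadjusted p under 0.05 only Fancd2 in TIM vs AG. It called 1 in TIM vs TI (Fanca), with 22.9% of all genes called, 1 in TIM vs AGM (Fancd2), with 65.3%, and none in the difference of the tumor to gland contrasts, (TIM vs AGM) minus (TI vs AG), with 10%. Fanca entered that fit through TI alone and Fancd2 through tumors alone, so these calls are no support either. The read-based fit called 2 of 9 genes higher in TI than in AG (Fanca and Chek1; 19.1% of all genes) and 1 lower (Atr; 26.6%). It called 1 of 9 lower in TIM than in AG (Atr; 28.6%), 1 lower in AGM than in AG (Atr; 9.82%), 1 lower in TIM than in TI (Fanca; 11%) and 3 higher in TIM than in AGM (Brca2, Exo1 and Chek1; 23.4%). Without the filter on low values the FPKM fit called 7 of 9 higher (16.8% of 18862 genes) and Atr lower (22.6%) in TI vs AG, leaving Fancd2 uncalled. In the 5 contrasts of groups, each gene had one sign in these 3 fits except Fancd2 in TIM vs TI, at 0.29 in the FPKM fit and -0.31 in the read-based fit.

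**Figure D3:**
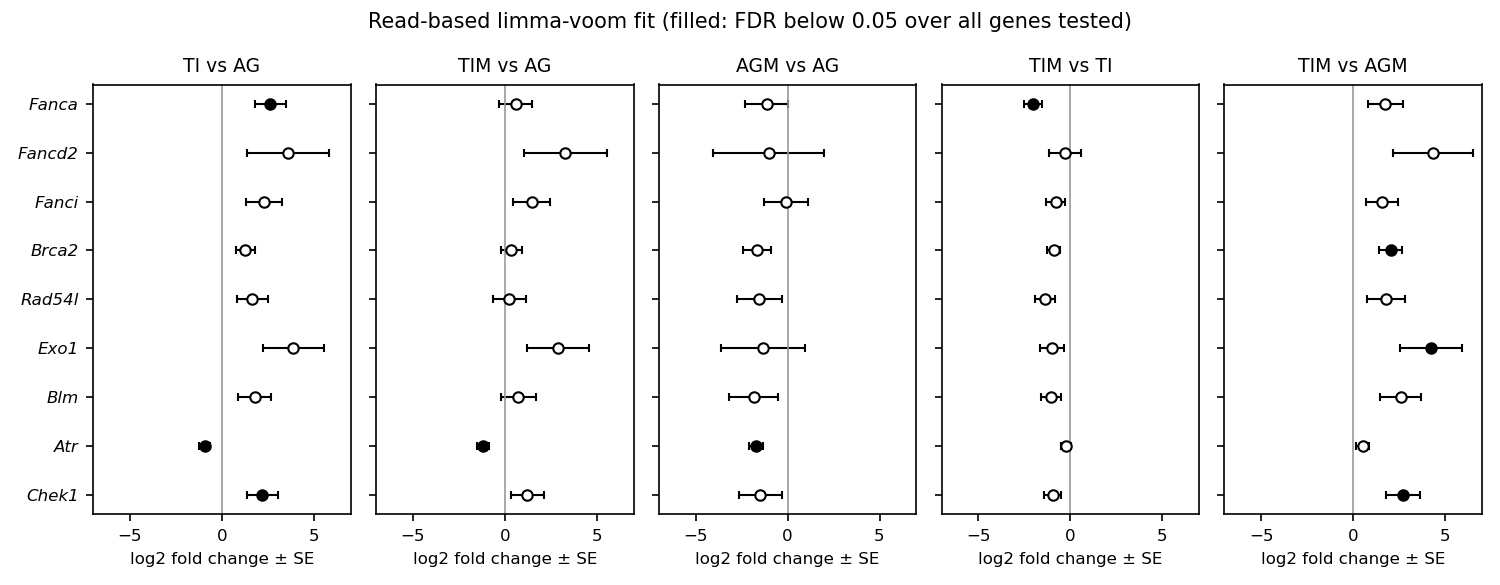
Log2 fold change ± SE of the 9 genes in the read-based limma-voom fit for 5 contrasts, filled where the FDR over all 16221 genes was below 0.05. Point estimates lie above 0 for 8 genes in TI vs AG and below 0 for all 9 in AGM vs AG and in TIM vs TI, with wide errors for Fancd2 and Exo1.

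Levels in AGM depend on the library total. Over 15903 genes the median ratio of AGM to AG was 1.01 on the FPKM scale and 0.730 on the RPM scale, and the FPKM fit called 1488 genes higher and 1420 lower in AGM than in AG, against 932 higher and 3481 lower with library totals taken outside the extreme genes. Against these, the 9 genes had a median ratio of 0.366 (range 0.310 to 0.953) on the FPKM scale and 0.272 (range 0.234 to 0.677) on the RPM scale, so all were below the median gene on either scale. In TI vs AG the median gene was at 0.966 (FPKM) and 0.958 (RPM) and the 9 genes at 4.99 and 4.93. In TIM vs AG the median gene was at 0.991 and 0.895 and the 9 genes at 2.57 and 2.40. In TIM vs TI the median gene was at 0.981 and 0.893 and the 9 genes at 0.647 and 0.612. In TIM vs AGM the median gene was at 1.02 and 1.27 and the 9 genes at 5.45 and 6.97.

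Within TI, TI-C held the highest value of 8 of the 9 genes and TI-D the lowest of 8. Within TIM, TIM-E held the lowest of all 9, each below every AG library, and TIM-C the highest of 6. Without TIM-E the read-based fit called 7 of the 9 genes in TI vs AG (48.6% of 16183 genes were called in either direction), 3 in TIM vs AG (47.5%), 2 in AGM vs AG (22.9%) and 8 in TIM vs AGM (59.8%). The library was singled out by these same values, so the counts are descriptions. It is in neither group of TI vs AG or AGM vs AG, whose own values did not change. TIM-E also differed in markers, whose part in the result was not tested. Its 8 sympatho-adrenal genes summed to 4650 FPKM, the highest of all TIM (median 848), and its 4 Schwann cell genes to 20.01 FPKM (TIM median 0.948). Its 3 adipocyte genes summed to 32.2 FPKM (TIM median 1.97), its 4 fibroblast genes to 27.2 (TIM median 15.4), and its 7 cortex genes to 9.28 FPKM (TIM median 0.658), with 2 of the 7 at 0. Endothelial genes summed to 0.755 to 6.48 FPKM in TIM and 1.90 to 17.7 FPKM in TI against 13.8 to 14.7 FPKM in AG and 9.23 to 11.2 FPKM in AGM. Macrophage genes summed to 4.51 to 8.89 FPKM (AG), 5.99 to 10.96 FPKM (AGM), 2.99 to 10.3 FPKM (TI) and 3.69 to 10.1 FPKM (TIM). Lymphocyte genes summed to at most 0.358 FPKM in tumors and to 1.19 to 2.77 FPKM in AG and 0.477 to 2.16 in AGM, and the 2 erythroid genes in the table to 0.624 to 1.12 FPKM (AG), 2.55 to 31.6 FPKM (AGM), 0.491 to 10.8 FPKM (TI) and 0.0924 to 4.73 FPKM (TIM). Adipocyte genes summed to 28.8 to 139 FPKM in AG, 106 to 256 in AGM and at most 2.27 in TI.

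The tumors were next set against their cell cycle genes, the mean log2(FPKM + 1) of 81 S and G2/M phase genes that exclude the 9. This mean was 0.92 to 0.97 (AG), 0.51 to 0.62 (AGM), 1.29 to 2.99 (TI) and 0.47 to 2.32 (TIM). Within the 8 TI tumors the relation was closest for Fanca (Pearson r = 0.972, exact permutation p = 9.92e-05, adjusted p = 0.00179, Spearman rho = 0.929), followed by Blm (r = 0.951), Rad54l (0.939), Exo1 (0.935), Fanci (0.920), Chek1 (0.908), Fancd2 (0.882) and Atr (0.757). Brca2 was not past the threshold in TI (r = 0.597, exact permutation p = 0.115, adjusted p = 0.115, rho = 0.357) and its r turned to -0.458 without the tumors farthest from the median. Within the 8 TIM tumors r was 0.954 for Exo1, 0.937 for Blm, 0.933 for Rad54l, 0.885 for Chek1, 0.881 for Fanci, 0.850 for Brca2, 0.800 for Fanca and 0.741 for Atr. Fancd2 had r = 0.700 in TIM (exact permutation p = 0.0533, adjusted p = 0.0565), with TIM-C and TIM-F at the top. In all, 16 of 18 relations were past the threshold by Pearson's r, with adjusted p up to 0.0485. As a background, the r of Atr, the lowest of those past it, was reached by 7.79% of 16120 genes in TI and by 10% of 16103 genes in TIM. By Spearman's rho Atr was not past the threshold in TI (rho = 0.548, exact permutation adjusted p = 0.181) or in TIM (rho = 0.643, adjusted p = 0.108), whereas Fancd2 in TIM was (rho = 0.810, adjusted p = 0.0261). Without the 2 tumors farthest from the median of the cell cycle mean, r for Atr was 0.223 in TI and 0.508 in TIM, so this relation rests on those tumors. For the 7 genes other than Brca2 and Atr it stayed between 0.694 (Fancd2) and 0.981 (Rad54l) in TI and between 0.573 (Fancd2) and 0.932 (Exo1) in TIM.

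**Figure D4:**
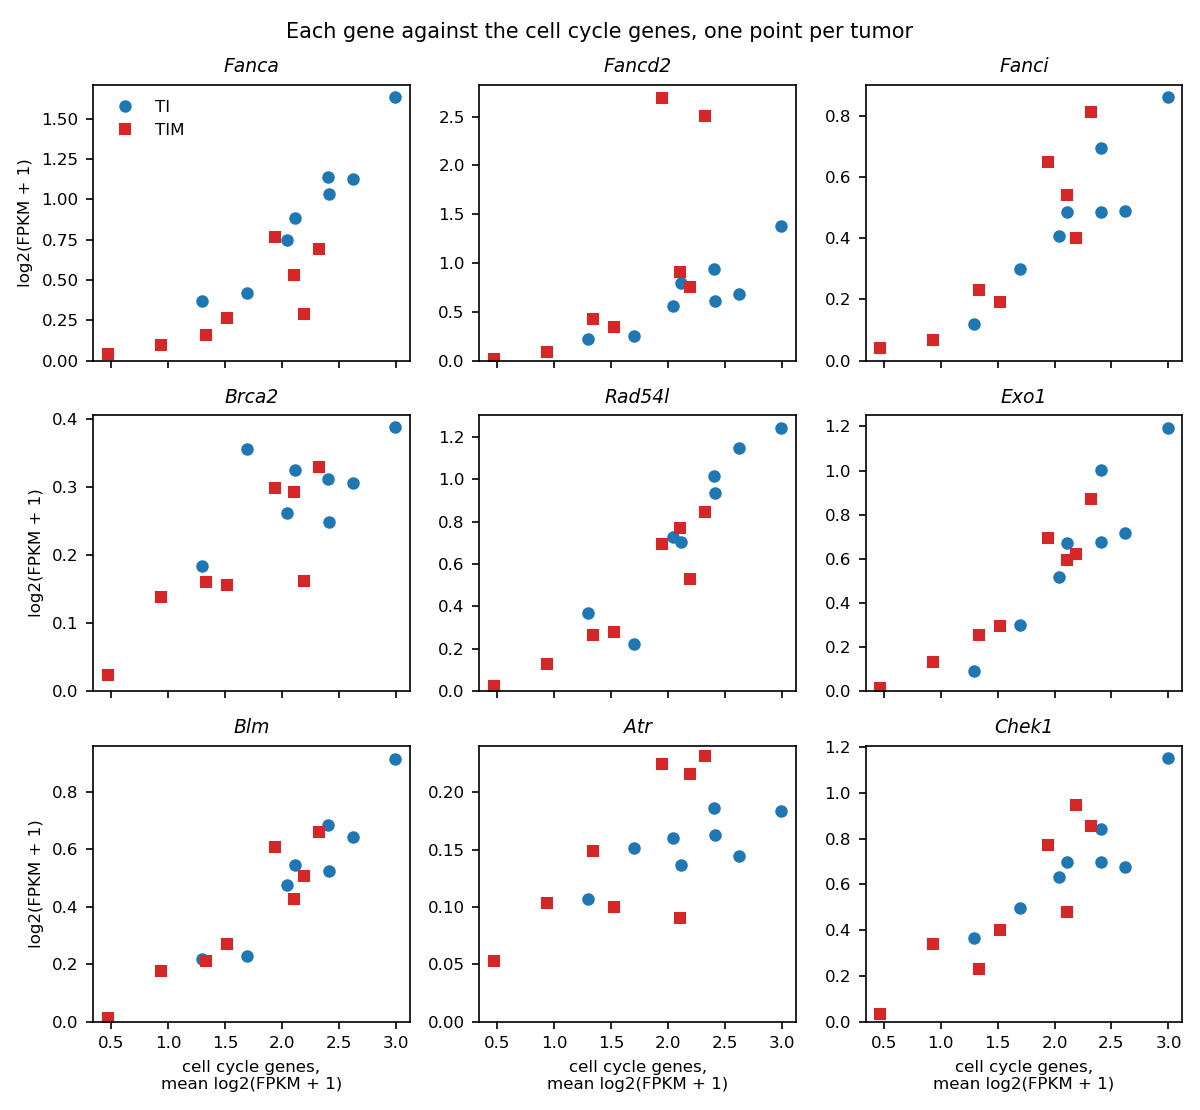
Log2(FPKM + 1) of each gene against the mean log2(FPKM + 1) of 81 cell cycle genes, one point per tumor (8 TI as circles, 8 TIM as squares). Each panel has its own vertical scale. Points climb with the cell cycle mean in most panels, scatter most for Atr and Brca2, and 2 TIM points of Fancd2 lie far above the rest.

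Over all 24 libraries, genes whose log2(FPKM + 1) was among the 5 most like the mean of the standardised levels of the 9 were Hells (r = 0.987), Cdca7l (0.978), Kntc1 (0.966) and Kif4 (0.963). Hells is a chromatin remodeler of replicating cells, Kntc1 a kinetochore protein and Kif4 a chromosome motor. Hells averaged 0.181 FPKM in AG, 0.0415 in AGM, 0.817 in TI and 0.554 in TIM, and Kntc1 0.0620, 0.0155, 1.15 and 0.546 FPKM. Hells is also in the cell cycle list. These r span groups that differ in level and are descriptions only.

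The wider pathways were followed with lists of other genes, some of which, such as Cdc25c, are also in the cell cycle list. Genes counted in the FPKM fit passed its filter, some of them through the tumors alone and some through the glands alone. Each count is therefore followed by that of the read-based fit, which tested every listed gene. Among genes named below as higher in TI, Hrob, Eme1, Recql4, Ube2t, Pkmyt1, Cdc25c and Timeless stayed below 1 FPKM in every gland library. Their FPKM fit values are descriptions and no support for a higher level in tumors. Recql4 reached 1 FPKM in TI alone, so the same holds for its TIM vs TI value. Rad50 reached 1 FPKM in AG alone, and Nhej1 in glands alone. Their FPKM fit values are therefore no support for a lower level in TI. The value of Rad50 in AGM vs AG is no support for a lower level in AGM either. Of 20 mediator and strand exchange genes, 10 were tested in the FPKM fit, and 5 were higher and 0 lower in TI than in AG, with a median log2 fold change of 0.44 against 0.00 for all genes, where 24.6% of all genes were higher and 27.7% lower. The read-based fit had 8 of 20 higher and 0 lower (19.1% and 26.6% of all genes). The largest change was that of Hrob, which recruits an MCM helicase to breaks (1.64 ± 0.35, FDR = 0.000439). In TIM vs TI, 4 of the 10 were lower, among them Hrob (-0.87 ± 0.26, FDR = 0.0196) and Brca1 (-0.50 ± 0.17, FDR = 0.0375), and 1 was higher, against 12.9% of all genes lower and 10% higher. The read-based fit had 8 of 20 lower and 1 higher in that contrast, where 11% of all genes were lower and 1073 of 16221 higher. None of the 10 passed in AGM vs AG in the FPKM fit and 2 of 20 were lower in the read-based fit (9.82% of all genes). The latter fit also had 0 higher and 2 lower in TIM vs AG (16.4% and 28.6% of all genes). Of 17 resection and junction genes, 10 were tested, with 3 higher and 2 lower in TI than in AG (median 0.09), and with 4 and 3 of 17 in the read-based fit. The nuclease subunit Eme1 (1.17 ± 0.30, FDR = 0.00203) and the helicase Recql4 (0.92 ± 0.21, FDR = 0.000686) rose, and Rad50 of the end-binding MRN complex fell (-0.47 ± 0.13, FDR = 0.00401). In TIM vs TI, 5 of these 10 were lower and 0 higher, including Eme1 (-0.94 ± 0.22, FDR = 0.00437) and Recql4 (-0.58 ± 0.15, FDR = 0.00892). In AGM vs AG 2 fell, Rad50 (-0.50 ± 0.14, FDR = 0.00999) and its partner Nbn (-0.41 ± 0.14, FDR = 0.035), and 1 rose, where 14% of all genes fell and 14.6% rose. The read-based fit had 6 of 17 lower in TIM vs TI (11% of all genes). It had 3 lower and 1 higher in AGM vs AG (9.82% of all genes lower). In TIM vs AG it had 7 lower and 1 higher (28.6% and 16.4% of all genes).

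Of 18 other Fanconi anemia genes, 11 were tested, with 3 higher and 1 lower in TI than in AG (median 0.06). The read-based fit had 4 and 3 of 18 (19.1% and 26.6% of all genes). The E2 enzyme Ube2t rose (0.93 ± 0.24, FDR = 0.00263), as did Mad2l2 (0.76 ± 0.27, FDR = 0.0196), and the ubiquitin ligase Rfwd3 fell (-1.16 ± 0.21, FDR = 6.08e-05). The core complex gene Fancg was the 1 gene lower in TIM than in TI (-0.56 ± 0.15, FDR = 0.0105), and Rfwd3 (-1.05 ± 0.22, FDR = 0.00117) and Wdr48 (-0.37 ± 0.10, FDR = 0.00598) were the 2 lower in AGM than in AG. The read-based fit had 4 of 18 lower in TIM vs TI and 2 lower in AGM vs AG (11% and 9.82% of all genes). Of 23 checkpoint genes, 16 were tested, with 8 higher and 0 lower in TI than in AG (median 0.77). The read-based fit had 7 and 0 of 23 (19.1% and 26.6% of all genes). Pkmyt1, an inhibitory kinase of Cdk1 (1.85 ± 0.30, FDR = 2.08e-05), its opposing phosphatase Cdc25c (1.53 ± 0.26, FDR = 3.55e-05) and the fork protection gene Timeless (1.11 ± 0.34, FDR = 0.00775) were the largest. In TIM vs TI 5 of the 16 were lower, with Pkmyt1 at -0.90 ± 0.22 (FDR = 0.0065) and Cdc25c at -0.85 ± 0.19 (FDR = 0.00385). Topbp1, the activator of Atr, was the 1 gene lower in AGM than in AG (-0.64 ± 0.23, FDR = 0.0394). The read-based fit had 3 of 23 lower in TIM vs TI (11% of all genes) and none past the threshold in AGM vs AG. In TIM vs AG it had 4 higher and 2 lower (16.4% and 28.6% of all genes).

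Of 14 end joining genes, which repair breaks without a template, 8 were tested, with 2 higher and 3 lower in TI than in AG (median -0.02). The read-based fit had 3 and 4 of 14 (19.1% and 26.6% of all genes). Xrcc6 (Ku70) fell (-1.05 ± 0.10, FDR = 3.18e-09), as did Nhej1 (-0.48 ± 0.10, FDR = 0.000254), and Xrcc1 rose (0.50 ± 0.12, FDR = 0.00103). Xrcc1 was the 1 gene lower in TIM than in TI (-0.52 ± 0.09, FDR = 0.00032). In AGM vs AG Parp1 (-1.15 ± 0.41, FDR = 0.0386) was among 2 lower and Paxx (0.91 ± 0.26, FDR = 0.0126) was the 1 higher. The read-based fit had 3 of 14 lower in TIM vs TI (11% of all genes). It had 2 lower and 1 higher in AGM vs AG (9.82% of all genes lower). In TIM vs AG it had 5 lower and 1 higher (28.6% and 16.4% of all genes). Of the cell cycle list, 66 of 81 genes were higher and 0 lower in TI than in AG (median 1.07), where 24.6% of all genes were higher and 27.7% lower. In TIM vs TI 30 of 81 were lower and 0 higher (median -0.55), against 12.9% and 10% of all genes. Of the same 81 genes, 27 were higher in TIM than in AG (median 0.63, against 22.5% of all genes higher), 2 were lower in AGM than in AG and 76 were higher in TIM than in AGM (median 0.92, against 31.9% of all genes). In the read-based fit 54 of 95 were higher in TI than in AG (19.1% of all genes) and 22 lower in TIM than in TI (11%). That fit had 4 lower in AGM than in AG (9.82%) and 61 higher in TIM than in AGM (23.4%). In TIM vs AG, by contrast, 6 were higher and 1 lower (16.4% and 28.6% of all genes).

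Ordered by mean FPKM, a level per gene length, Atr (0.215 ± 0.0173, SD) and Rad54l (0.207 ± 0.029) led in AG and did not differ beyond their spread, and Fancd2 (0.0423 ± 0.00106) and Exo1 (0.0302 ± 0.0038) were last. In TI the order ran from Fanca (0.960 ± 0.578), Rad54l (0.782 ± 0.425), Fancd2 (0.651 ± 0.458), Chek1 (0.638 ± 0.279), Exo1 (0.606 ± 0.394), Blm (0.460 ± 0.237) and Fanci (0.410 ± 0.224), whose neighbours lay within each other's SD, to Brca2 (0.230 ± 0.0546) and Atr (0.113 ± 0.0198). Atr thus went from the first place in AG to the last in TI and in TIM (0.108 ± 0.0538). In TIM Fancd2 was first (1.55 ± 2.20) through TIM-C and TIM-F, ahead of Chek1 (0.452 ± 0.324).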

How the data were processed

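Poly(A)-enriched, strand-specific RNA-seq of 24 mouse samples was used. The authors trimmed reads with cutadapt 2.8, aligned them to mm39 with HISAT2 2.1.0, counted with featureCounts 2.0.0, corrected a batch effect with ComBat-seq and applied the TMM normalization of edgeR. Deposited were FPKM values with a gene length (other unit, bases). The 9 columns of the authors' own comparisons with AG (fold changes, p-values, FDR) were not used. The annotation is not given in the sources used here. FPKM gave whole corrected reads (tolerance 0.05 reads) for 100% of values. These totals are of reads after the batch correction, whose effect on the extreme genes was not tested, and are not sequencing depth. Columns name a group but no sample, so run and zygosity could not enter a fit. Whether replicates are separate animals is not tied to columns, so p-values measure the spread between libraries.

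limma 3.58.1 in R 4.3.3 (trend, no covariates, all 24 libraries, Benjamini-Hochberg over all tested genes) was run on log2(FPKM + 1) of genes reaching 1 FPKM in 3 or more libraries. Exact permutation tests enumerated every split, and correlations every pairing of 8 tumors. Limma-voom on recovered reads (at least 10 in at least 3 libraries) was added after seeing the data. The code was tested on simulated data. The genes and lists were chosen with earlier results of these data known. Named pathway genes are, per list, the 3 with the largest change past the threshold in TI vs AG and the 2 each in TIM vs TI and AGM vs AG, and the 5 genes most correlated with the mean of the 9. Some genes that this rule names are not reported here. Alternatives were the pseudocount, filter, scaling, test, shrinkage, the libraries that set the spread and each library left out.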

Additional observations from a re-analysis of the deposited data

Results flagged for a closer look

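Blm in AGM-B was 0.0769 FPKM, far above the other 4 AGM libraries, which lay between 0.0191 and 0.0312 FPKM. Chek1 in AGM-E was 0.0232 FPKM, far below the other 4, which lay between 0.0484 and 0.0548 FPKM, and it rests on 9 reads. Both were flagged because the gap to the nearest library exceeded Dixon's critical value for 5 libraries, among 27 groups tested, and chance flags about 1 in 20 groups.

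For Atr the difference between the tumor to gland contrasts, (TIM vs AGM) minus (TI vs AG), was 0.17 on the log2(FPKM + 1) scale in the fit without a filter (FDR = 0.0119, limma). TIM was above AGM (log2 fold change 0.52 ± 0.37 in the read-based fit, FDR = 0.234) while TI was below AG (-0.95 ± 0.31, FDR = 0.0156). The read-based fit gave 1.46 ± 0.48 for the difference (FDR = 0.145), and 0.0376 without TIM-E. AGM and AG share no sequencing run, and run and group cannot be told apart there.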

How the results depend on the processing

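Counts below are of the 9 genes past the threshold. The FPKM fit and its settings tested at most 3 of the 9, while all 9 were tested with no filter and in the read-based fit. TI vs AG gave 2 in the FPKM fit, 3 with a pseudocount of 0.1, 3 when only the libraries of the contrast set the spread, 8 with no filter and 1 with limma-voom under the same filter. TIM vs AG gave 0, and 1 with a pseudocount of 0.1, with no filter and in the read-based fit. AGM vs AG gave 0, 1 with no filter, 3 when only the libraries of the contrast set the spread and 1 in the read-based fit. Of all 10171 genes, that spread called 2969 higher and 3343 lower in AGM vs AG, against 1488 and 1420 in the FPKM fit. TIM vs TI gave 1, and 2 with library totals outside the extreme genes. TIM vs AGM gave 1, then 3 with a pseudocount of 0.1, 5 with no filter, 2 with the other totals, 0 with limma-voom and 3 in the read-based fit. The difference of contrasts gave 0, and 1 with no filter. Within the read-based fit, spread set by the libraries of the contrast alone gave 8 for TI vs AG (3 otherwise), 7 for AGM vs AG (1 otherwise) and 1 for TIM vs AGM (3 otherwise), and the other totals gave 2 for AGM vs AG. The calls over all 16221 genes moved too. With that spread 3863 were higher and 4576 lower in AGM vs AG (1340 and 1593 otherwise). In TI vs AG 3651 were higher and 4824 lower (3094 and 4309 otherwise), and in TIM vs AGM 3397 and 4881 (3795 and 5293 otherwise). A filter of 1 FPKM in every library left none of the 9 and gave no value.

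Leaving out each library gave, in the FPKM fit, 1 to 2 for TI vs AG, 0 to 1 for TIM vs AG, 0 to 0 for AGM vs AG, 1 to 2 for TIM vs TI, 0 to 2 for TIM vs AGM and 0 to 0 for the difference of contrasts. In the read-based fit it gave 1 to 7, 1 to 3, 1 to 2, 1 to 2, 2 to 8 and 0 to 1 in that order, with the highest counts mostly without TIM-E. In the exact tests of 6 genes it gave 1 to 5 for TI vs AG (3 with all), 0 to 2 for TIM vs AG (1), 0 to 6 for AGM vs AG (5), 1 to 1 for TIM vs TI (1) and 1 to 5 for TIM vs AGM (4). The cause was not tested. Of single-gene values under the other settings, 321 kept their side of the threshold, 33 passed it newly and 12 lost it, and none turned its direction past the threshold. Of 18 cell cycle relations 16 passed, 17 with a pseudocount of 0.1 and 15 with the other totals.

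No paired analysis was possible because the columns carry no replicate numbers. AG has 3 libraries, so no exact test against it can go below p = 0.00606 (TI, TIM) or 0.0179 (AGM), or, without 1 AG library, below 0.0222 or 0.0476, and Exo1 in AGM rests on 1 to 20 reads.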
